A study of Mus musculus with 6 samples.

Results

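The genes described here encode the translation initiation factors (eIFs), the kinases that phosphorylate eIF2 and the proteins that bind eIF4E. Members were the genes whose symbol begins with Eif and a digit, named from array probe sets (groups of short probes that report 1 transcript) that the platform annotation gives 1 gene symbol. The rule gave 47 genes of 18194 genes named on the array, and it used no measured value. Eif1, Eif2s1, Eif3g and Eif4g1 are not among the 47, so counts by complex do not cover every subunit. Messenger RNA of A20, a B lymphoma cell line of BALB/c mouse origin, was read on 6 Affymetrix whole-genome mouse arrays. The 6 conditions were untreated cells, cells with SP600125 for 24 h, cells with TGF-β for 12 h, cells with TGF-β for 24 h, and cells with TGF-β and SP600125 together for 12 h and for 24 h. SP600125 inhibits JNK, a stress-activated MAP kinase, and by their titles the 3 arrays without it had DMSO. There was 1 array per condition and no replicate, nothing in the labels says whether the cultures were separate, and the cells are 1 tumour line. The question set by the design was which genes are induced by TGF-β and which of these inductions depend on JNK.

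Initiation begins when eIF2 carries the initiator tRNA to the small ribosomal subunit, which eIF1, eIF1A, eIF3 and eIF5 help to assemble. The cap of the messenger RNA is bound by eIF4F, made of the cap-binding eIF4E, the helicase eIF4A and the scaffold eIF4G, and 4E-BP proteins block this by holding eIF4E until mTORC1 phosphorylates them. Phosphorylation of eIF2 by stress kinases inhibits eIF2B, the factor that recharges eIF2 with GTP, and lowers general translation while messages such as Atf4 are translated more. Activated B cells and lymphoma cells carry high levels of this machinery, which MYC is known to raise.

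Of the 47 members, 45 lay above the intensity floor of 74.2 (the 50th percentile of all signals) on all 6 arrays, as did 9113 of all named genes. The other two were below it on every array. Eif2s3y, the copy of the eIF2 γ subunit gene on the Y chromosome, reached at most 16.9. The probe set of Eif4a3, the helicase of the exon junction complex, reached at most 24.5. All 7 B cell markers found (Cd79a, Cd79b, Ms4a1, Cd22, Blnk, Pax5 and Ptprc) were above the floor on every array, and their summed signal was 54391.4 to 64042.0 without SP600125 and 39984.8 to 41096.9 with it. At most 2 of 5 T cell, 2 of 4 myeloid, 2 of 4 fibroblast and 0 of 1 erythroid markers were above the floor on any array. The part of these markers in the results was not tested, and in RNA from a whole culture fewer cells of a kind and less RNA per cell cannot be told apart. One array, that of 24 h of TGF-β plus SP600125, differed from the others in control probe sets, with a mean 18S ribosomal RNA signal of 4291.2 against 370.9 to 651.4 on the other 5, and an actin 3′/5′ ratio (a sign of RNA quality) of 1.89 against 1.25 to 1.51.

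Effects of 3 kinds were tested with limma in an additive model over all 6 arrays: 12 h of TGF-β and 24 h of TGF-β, each averaged over both drug settings and each against the same unstimulated arrays, and SP600125, averaged over the 3 TGF-β states. "Rose" and "fell" below mean a Benjamini-Hochberg adjusted p under 0.05 over the 11731 genes tested. "Higher" and "lower" describe single arrays. At 12 h of TGF-β, 0 of the 45 members rose and 4 fell, where 2.60% of all genes rose and 2.37% fell. At 24 h, 1 rose and 8 fell, against 9.07% and 7.50% of all genes. With SP600125, 6 rose and 0 fell, against 3.99% and 3.69% of all genes, and 3 members were lower at an unadjusted p under 0.05. Fits with 1 array left out, here and below, called far fewer of all genes too, so a lost call is not particular to members. The calls on all 6 arrays rest on 2 residual degrees of freedom. Left out 1 array at a time, which leaves 1, the model called no member at 12 h, Eif2b1 alone at 24 h without either 12 h TGF-β array, and Eif4ebp1 alone for SP600125 without the untreated, the SP600125 or the TGF-β 12 h array.

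**Figure D1:**
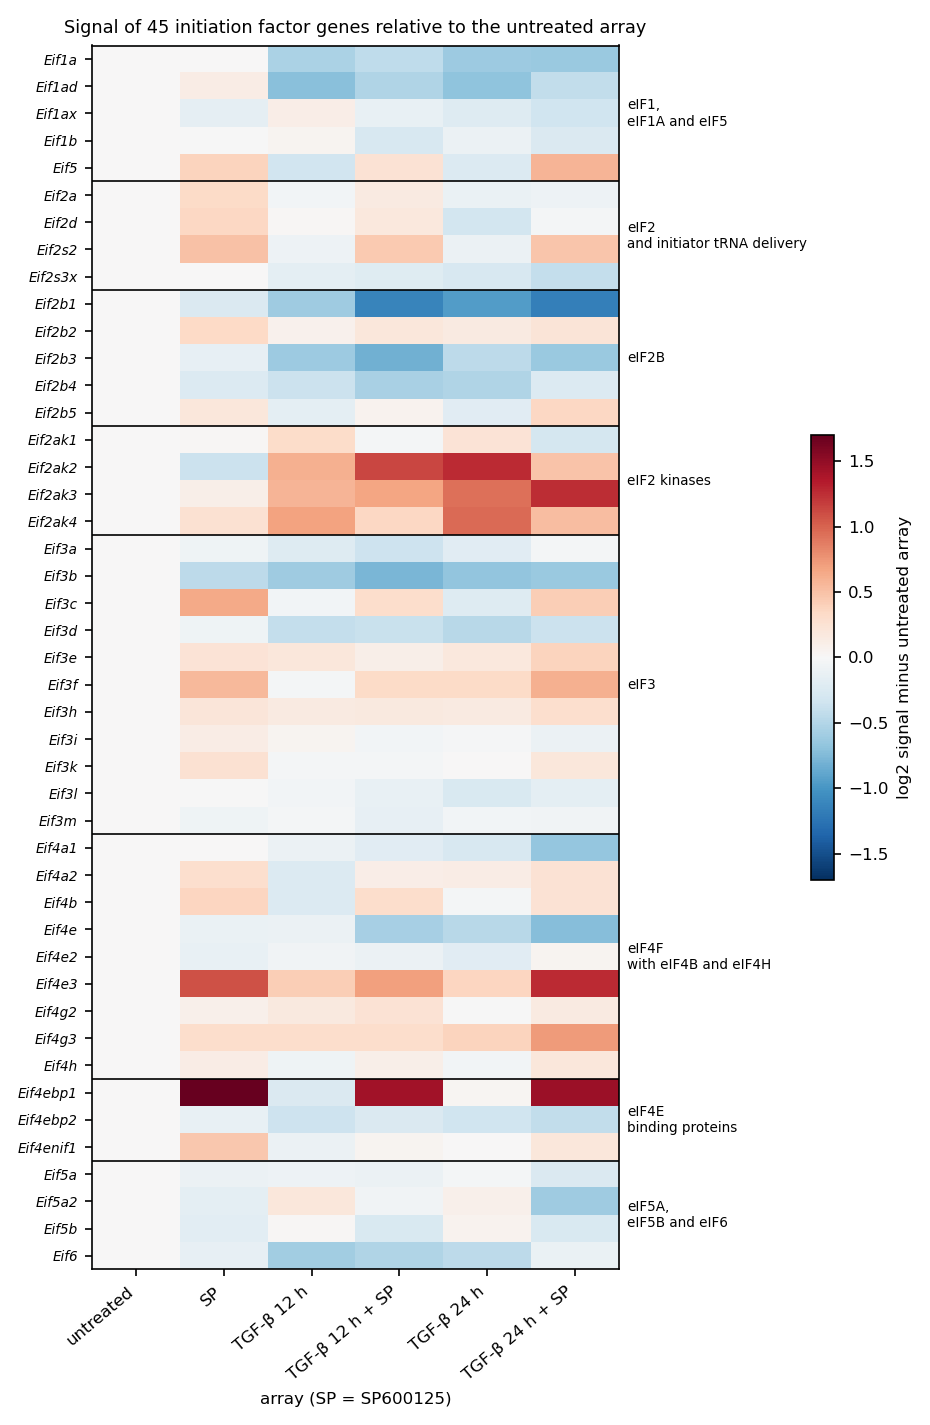
Colour shows the log2 signal of each of the 45 members above the floor minus its log2 signal on the untreated array, for the 6 arrays (columns) and with genes (rows) grouped by role. Eif4ebp1 stands out as high in the 3 SP600125 columns, Eif2ak2, Eif2ak3 and Eif2ak4 as high with TGF-β, and Eif2b1 as low with TGF-β.

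The members as a whole lay slightly below other genes under TGF-β. Their median log2 effect was -0.11 at 12 h against 0.02 for all genes, and 34 members were below 0 (75.6%, against 47% of all genes). At 24 h the median was -0.09 against 0.07, with 33 members below 0 (73.3%, against 43.5%). With SP600125 the median was 0.03 against 0.04 for all genes. Scaling each array to the same median moved the all-gene medians to -0.04, -0.04 and -0.03 and the member medians to -0.19, -0.23 and -0.05 for 12 h, 24 h and SP600125. Under quantile normalization the all-gene medians were -0.00, 0.02 and 0.02 and the member medians -0.15, -0.09 and 0.07, so members lay below all genes for TGF-β under each scaling, and for SP600125 their side depended on the scaling. Median scaling moved the share of rises among all called genes from 52.3%, 54.7% and 51.9% to 34.3%, 34.0% and 34.1%. Under quantile normalization these shares were 51.5%, 52.6% and 51.8%. The 2 TGF-β effects share their unstimulated arrays, so they are given side by side and not as 2 independent results. Members also had smaller standard errors than most genes, with a median of 0.11 at 12 h against 0.21 for all genes. Members are bright on these arrays.

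**Figure D2:**
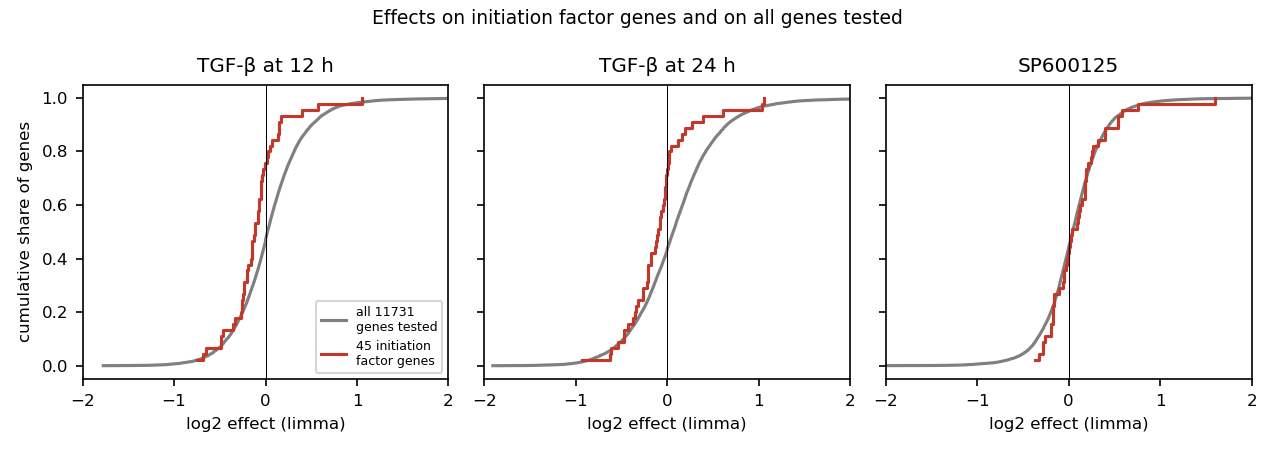
Each panel plots the cumulative share of genes (vertical axis) against the log2 effect from limma (horizontal axis; the few genes beyond its ends are not drawn), for the 45 members in red and all 11731 genes tested in grey. The red curve lies left of the grey one over the middle range in both TGF-β panels (medians -0.11 against 0.02 and -0.09 against 0.07), and close to it with SP600125.

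The clearest change in the family was in Eif4ebp1, which encodes 4E-BP1, the repressor that competes with eIF4G for eIF4E. Its signal was 2952.9 in untreated cells, and TGF-β alone gave 2490.9 at 12 h and 3020.6 at 24 h. With SP600125 it was 9565.9 without TGF-β, 7969.0 with TGF-β at 12 h and 8071.9 at 24 h. All 3 arrays with the drug lay above all 3 without it. Such separations, here and below, only describe the arrays. The share of all genes that separate in this way was not counted, and most genes named were picked by these same values. The SP600125 effect on Eif4ebp1 was a rise of 1.60 ± 0.09 on the log2 scale (SE, limma, adjusted p = 0.000144), a 3.03-fold increase seen in 3 of 3 pairs, and it ranked 32nd among all genes tested, from the largest rise down. TGF-β left a log2 difference of -0.25 ± 0.11 at 12 h and -0.11 ± 0.11 at 24 h, neither past the threshold. The second brightest probe set, which read 3006.2, 2053.2 and 2209.7 at 0 h, 12 h and 24 h without the drug and 8206.4, 6109.7 and 5756.6 with it, fell with TGF-β by 0.49 ± 0.11 and 0.48 ± 0.11 when probe sets were tested singly (limma adjusted p = 0.0483 and 0.0228). Its 2 sets besides the brightest gave SP600125 effects of 1.47 and 0.60, and the last of these was dim, between 104.5 and 194.0. The brightest probe set carries a suffix that marks probes shared with other sequences. Without the TGF-β 12 h with SP600125 array, the TGF-β 24 h array or the TGF-β 24 h with SP600125 array, the Eif4ebp1 effect was 1.56, 1.69 and 1.69 and was not called (limma adjusted p up to 0.157).

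The other eIF4E binding proteins did not pass any test. Eif4ebp2, the gene of 4E-BP2, had an SP600125 effect of -0.03 ± 0.10, and Eif4enif1, which encodes the eIF4E transporter 4E-T, one of 0.26 ± 0.10. Both were below 0 at 12 h and 24 h of TGF-β, with log2 effects from -0.12 to -0.32.

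Eif5 encodes the protein that triggers GTP hydrolysis on eIF2 at the start codon. In the order of 0 h, 12 h and 24 h of TGF-β, its signal was 13263.3, 10581.0 and 11240.0 without the drug, and 17302.3, 15664.8 and 19721.4 with it. The drug arrays again lay above the others. Eif5 rose with SP600125 by a log2 of 0.59 ± 0.10 (limma adjusted p = 0.0124), and its 5 probe sets gave 0.49 to 0.63.

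Eif2s2, the β subunit of eIF2 and the binding site of eIF5, had signals of 14259.2, 13393.7 and 13313.6 without the drug, in the same order of times. They were 20182.4, 19401.3 and 19754.9 with it. The groups did not overlap, and the signals within each group were close. The rise was a log2 of 0.54 ± 0.07 (limma adjusted p = 0.00708), and all 6 probe sets were above 0, between 0.54 and 0.78. Eif2s3x, the X-linked γ subunit gene, had an SP600125 effect of -0.05 ± 0.08. Eif2a and Eif2d, whose products deliver initiator tRNA without eIF2, had effects of 0.19 and 0.27 that did not pass the test by their brightest probe sets.

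Within eIF3, the complex that bridges the ribosome and the messenger RNA, 2 of 11 members rose with SP600125 and 0 fell. Of all genes, 3.99% rose and 3.69% fell. Eif3c, a core subunit, had signals of 14439.1, 13971.8 and 12457.0 without the drug and 22666.8, 17754.1 and 19297.3 with it, again without overlap. Its log2 rise was 0.54 ± 0.09 (limma adjusted p = 0.0124), and 4 probe sets gave 0.54 to 0.69. Eif3f rose by 0.40 ± 0.08 (limma adjusted p = 0.0271) from a single probe set. Its groups nearly met, since the TGF-β 24 h array without the drug reached 21019.5 and the lowest drug array was at 21156.9.
The 9 others ranged from -0.20 (Eif3b) to 0.15 (Eif3k). Eif3i, the brightest of the complex, had signals of 23296.8, 23993.5 and 22889.9 without and 25540.3, 22588.0 and 21760.1 with the drug, and these overlapped.

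Eif4b, which stimulates the eIF4A helicase, rose with SP600125 by a log2 of 0.39 ± 0.08 (limma adjusted p = 0.0278), from 7658.1 to 8990.6 without the drug and 10641.5 to 11585.2 with it. Its 3 probe sets gave 0.13 to 0.51. Under scaling of each array to the same median, the Eif3f and Eif4b effects were 0.32 and 0.31 and were not called. Eif4e3, an atypical cap-binding protein, was dim. Its signals were 132.1, 176.7 and 169.6 without the drug and 280.3, 214.7 and 318.9 with it, all 3 higher, but its SP600125 effect of 0.76 ± 0.23 had an adjusted p of 0.0886 (limma). Of the Eif3f, Eif4b, Eif3c, Eif5 and Eif2s2 rises, none was called by limma when any single array was left out, although each effect kept its sign.

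**Figure D3:**
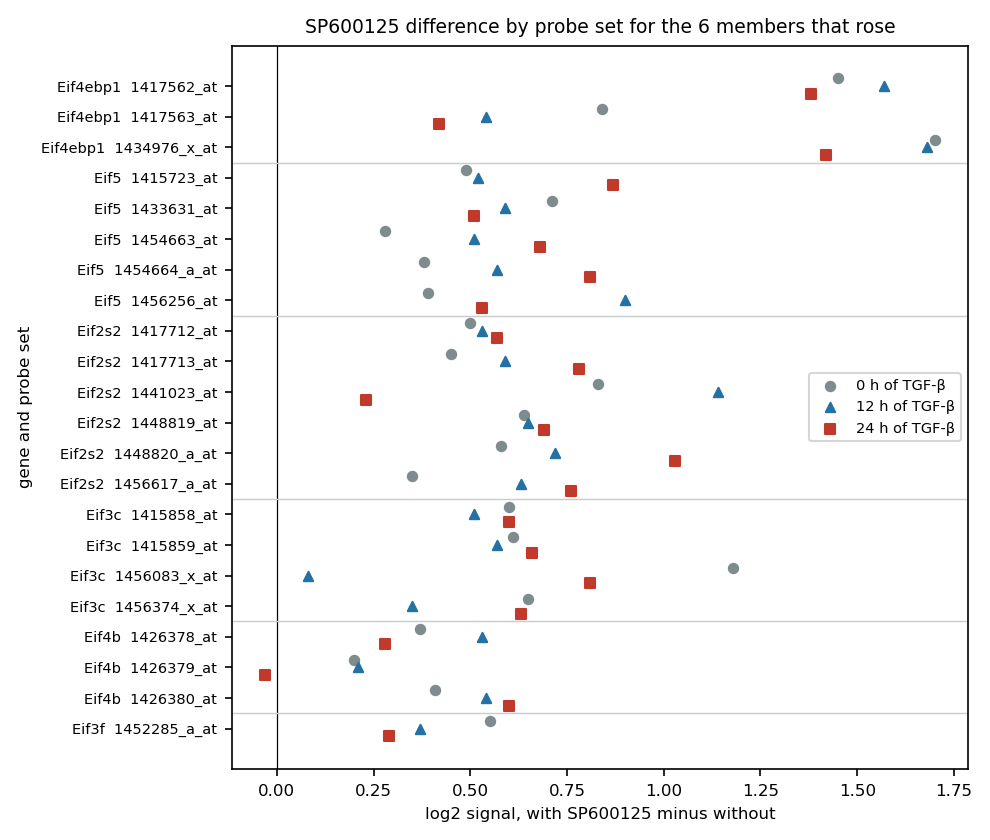
Each point is the log2 signal with SP600125 minus without it (horizontal axis) for 1 probe set (rows) of the 6 members that rose, with TGF-β for 0 h (circles), 12 h (triangles) or 24 h (squares). All points lie above 0 but that of 1 Eif4b probe set at 24 h, and the 2 brighter Eif4ebp1 probe sets lie farthest to the right.

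Of the role groups in the family, the eIF2 kinases had the highest median TGF-β effects. Their median log2 effect was 0.48 at 12 h and 0.83 at 24 h, where 0 and 1 of 4 rose and 0 fell. Of all genes, 2.60% and 9.07% rose and 2.37% and 7.50% fell. Eif2ak3 encodes PERK, the kinase activated by unfolded proteins in the endoplasmic reticulum. Its signal was 670.4 in untreated cells, 998.4 at 12 h and 1277.9 at 24 h, and with SP600125 it was 720.6, 1069.3 and 1593.5. It was higher at 12 h than at 0 h and higher at 24 h than at 12 h in both arms. Eif2ak3 rose at 24 h by a log2 of 1.04 ± 0.15 (limma adjusted p = 0.00453), while the effect of 0.57 ± 0.15 at 12 h had an adjusted p of 0.0668 (limma). Its other probe sets were at or near the floor, and the mean over all of them gave 0.39 at 24 h with no call. Left out 1 array at a time, Eif2ak3 at 24 h stayed between 0.93 and 1.15 and was not called without any of the 6.

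Eif2ak2 encodes PKR, which is activated by double-stranded RNA and is a known interferon-induced gene. Over the 3 times its signal was 321.7, 487.5 and 771.7 without the drug, and 250.4, 709.0 and 451.4 with it. All 4 TGF-β arrays were above both unstimulated arrays, but the order of 12 h and 24 h differed between arms. The effects of 1.05 ± 0.31 at 12 h and 1.06 ± 0.31 at 24 h did not pass (limma adjusted p = 0.0954 and 0.0528). The 2 other probe sets had effects of 0.89 and 0.58 at the earlier time and 0.82 and 1.16 at the later one, and the last of these was called when tested singly (limma adjusted p = 0.0337). The 12 h effect ranged from 0.50 without the TGF-β 12 h with SP600125 array to 1.60 without the TGF-β 12 h array. The 24 h effect ranged from 0.62 without the TGF-β 24 h array to 1.49 without the TGF-β 24 h with SP600125 array. Eif2ak2 was the only member more than 2-fold induced by TGF-β under the design's rule, 1.52-fold at 12 h and 2.40-fold at 24 h. With the drug its increase in signal was 177% larger at 12 h and 55.3% smaller at 24 h by the brightest set. The rule asks for 75% smaller. The set called at 24 h read 174.5, 294.4 and 538.7 without the drug and 256.7, 339.5 and 416.5 with it. There the 12 h increase was smaller with the drug, and 24 h was above 12 h in both arms. The last set read 114.5, 200.8 and 223.4 without the drug and 145.2, 282.5 and 230.8 with it, ordered like the brightest.

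Eif2ak4 encodes GCN2, the sensor of uncharged tRNA. Its TGF-β effects were 0.40 ± 0.20 and 0.61 ± 0.20, not called, with signals of 590.3, 951.2 and 1145.9 without the drug and 703.4, 756.5 and 846.9 with it. Its other probe set gave -0.41 at 12 h and -0.63 at 24 h, the opposite direction, but was above the floor on only 3 arrays. Eif2ak1, which encodes the haem-regulated kinase HRI, lay between 375.6 and 572.6 and had effects of 0.13 and -0.04. No kinase passed the SP600125 test, with effects from -0.29 (Eif2ak1) to 0.17 (Eif2ak3) by their brightest probe sets. Other tested sets gave -0.06 and 0.71 for Eif2ak1, 0.29 and 0.13 for Eif2ak2 and 0.43 for Eif2ak4, with no call.

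Of the 3 members whose additive effect reached 2-fold (Eif4ebp1 with SP600125, Eif2ak2 and Eif2ak3 with TGF-β), the promoters of both kinases are shown: Eif2ak2 (chr17:78882543-78882822, minus strand) and Eif2ak3 (chr6:70844265-70844544, plus strand). They are from the RefSeq promoter table on GRCm38.p6, from 250 bases before the annotated start to 30 after it, 5′ to 3′ along the gene. Capitals mark GAAA followed by any 2 bases and GAAA, an element like those bound by interferon-activated factors, a motif chosen after the values were seen.
Eif2ak2: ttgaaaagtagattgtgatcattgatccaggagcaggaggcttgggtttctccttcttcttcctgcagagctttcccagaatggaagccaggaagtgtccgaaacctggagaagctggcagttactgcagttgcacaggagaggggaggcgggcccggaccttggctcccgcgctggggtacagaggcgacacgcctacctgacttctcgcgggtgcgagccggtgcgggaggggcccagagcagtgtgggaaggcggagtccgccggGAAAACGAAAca
Eif2ak3: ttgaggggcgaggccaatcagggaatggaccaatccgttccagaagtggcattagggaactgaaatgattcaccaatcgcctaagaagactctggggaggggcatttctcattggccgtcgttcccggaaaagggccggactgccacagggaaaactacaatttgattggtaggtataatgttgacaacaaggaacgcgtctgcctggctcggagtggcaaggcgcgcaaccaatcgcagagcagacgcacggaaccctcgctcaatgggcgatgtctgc
The Eif2ak2 match reads GAAAACGAAA and begins at base 19 counted from the start. The Eif2ak3 window held none of the 3 motifs searched. Over windows from 250 bases before to 50 after the start, on either strand, 3 of 38 matched members (7.89%: Eif2ak2, Eif2s3x and Eif3a) held this element, against 3.28% of the tested genes and 3.99% of all genes in the table. The ATF4 element, TGATGNAA, was found in 1 (2.63%, Eif2s3x), against 2.63% and 4.51%. These are matches of letters and not shown to be sites.

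Of the 5 eIF2B subunits, 2 fell at 12 h and 2 at 24 h, and 0 rose. Of all genes, 2.37% and 7.50% fell and 2.60% and 9.07% rose. Eif2b1 encodes the α subunit, through which eIF2B senses phosphorylated eIF2. Its signal was 2302.9, 1516.3 and 1196.8 over the 3 times without the drug, and 1944.9, 1053.1 and 1032.6 with the drug. All 4 TGF-β arrays lay below both unstimulated ones. Eif2b1 fell by a log2 of 0.74 ± 0.14 at 12 h (limma adjusted p = 0.0253) and by 0.93 ± 0.14 at 24 h (limma adjusted p = 0.00533). Eif2b3, the γ subunit of the catalytic part of the complex, went from 2730.3 to 1772.2 and 2006.2, and from 2471.3 to 1548.2 and 1758.7 with the drug. It fell by 0.65 ± 0.11 and 0.47 ± 0.11 (limma adjusted p = 0.0199 and 0.0272).
Eif2b2, the brightest of the group, did not follow by its brightest probe set. The signals of that set were 4104.9, 4311.1 and 4554.3 without the drug and 5177.5, 4703.6 and 4770.9 with it. Its effects were -0.03 and 0.02. Another Eif2b2 set was called higher at 24 h (0.71 ± 0.16, limma adjusted p = 0.0217). Both sets carry a suffix for shared probes. The third set, without that suffix, gave -0.32 ± 0.12 at 12 h and 0.07 ± 0.12 at 24 h, with no call. Eif2b4 and Eif2b5 had effects of -0.34 and -0.15 at 12 h and -0.26 and -0.01 at 24 h, with no call. Left out 1 array at a time, the Eif2b1 effect at 24 h stayed between -1.01 and -0.84 and was called only without the TGF-β 12 h array or the TGF-β 12 h with SP600125 array, and Eif2b3 was called in no case.

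In the group of eIF1, eIF1A and eIF5, 2 of 5 members fell at both times, against 2.37% of all genes at 12 h and 7.50% at 24 h. Eif1a encodes a form of eIF1A, which helps scanning from the cap to the start codon. Its signals were 4328.7, 2994.9 and 2811.5 without the drug and 4359.5, 3198.1 and 2808.0 with it. It fell by 0.49 ± 0.10 at 12 h and 0.63 ± 0.10 at 24 h (limma adjusted p = 0.0362 and 0.00688). Eif1ad carries an eIF1A-like domain. Its signals were 2903.4, 1767.6 and 1808.9 without the drug and 3164.6, 2029.5 and 2163.8 with it, and it fell by 0.68 ± 0.11 and 0.62 ± 0.11 (limma adjusted p = 0.0176 and 0.00995). For both genes the TGF-β arrays lay below the unstimulated ones, and the second probe set also had effects below 0 at both times. Eif1ax and Eif1b had TGF-β effects between -0.20 and 0.07 by their brightest probe sets, while another Eif1ax set fell at 24 h by 0.67 ± 0.16 (limma adjusted p = 0.0283). Without any 1 of the 6 arrays neither fall was called, with effects at 24 h of -0.66 to -0.60 for Eif1a and -0.67 to -0.56 for Eif1ad.

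**Figure D4:**
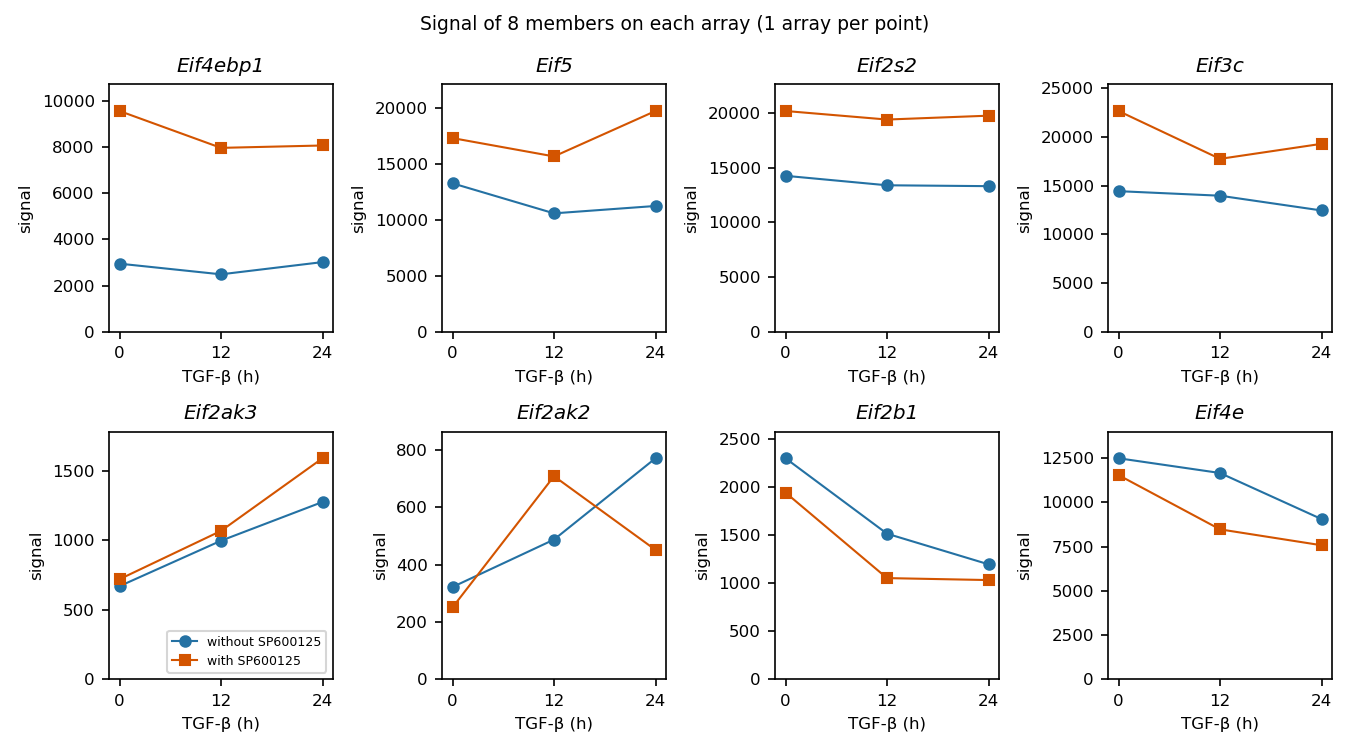
Deposited signal (vertical axis, linear, from 0) of 8 members against hours of TGF-β (horizontal axis), without SP600125 (circles) and with it (squares), 1 array per point and no error bars. In the top row both lines are apart at every time, and in Eif2ak3 and Eif2b1 they move together with time.

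In the eIF4F group, 0 members fell at 12 h by their brightest probe set and 2 of 9 fell at 24 h. Of all genes, 2.37% and 7.50% fell. Eif4e, the cap-binding subunit, had signals of 12502.6, 11667.5 and 9058.4 without the drug and 11549.4, 8477.1 and 7577.1 with it. Both 24 h arrays were below both unstimulated arrays. The fall at 24 h was 0.54 ± 0.11 (limma adjusted p = 0.0156), and its 4 probe sets ranged from -0.90 to 0.12, the last near the floor. Eif4a1, the main helicase, had signals of 22253.1, 20788.0 and 18449.2 without the drug and 22349.8, 19405.4 and 14066.0 with it, so the lowest was the array with the high 18S signal and actin ratio. It fell by 0.47 ± 0.12 at 24 h (limma adjusted p = 0.0309), but the value without that array was -0.30. A second Eif4a1 probe set read 7388.1 on that array against 15366.6 to 21888.4 on the others, and a further one read 16415.5, within its range of 14509.1 to 17571.9. Whether RNA quality had a part was not tested. Eif4a2, Eif4b, Eif4e2, Eif4e3, Eif4g2, Eif4g3 and Eif4h had 24 h effects from -0.08 to 0.40 (Eif4g3) with no call by the brightest set.

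Of the 6 members that fell at 24 h and have a promoter window, 2 hold the E-box CACGTG, the sequence MYC and MAX bind, and these windows were picked for printing after the values were seen. They are Eif4a1 (chr11:69672394-69672673, minus strand) and Eif4e (chr3:138527018-138527297, plus strand; 1 of its 2 windows), from the same table, build and span as the kinase promoters, with E-boxes in capitals.
Eif4a1: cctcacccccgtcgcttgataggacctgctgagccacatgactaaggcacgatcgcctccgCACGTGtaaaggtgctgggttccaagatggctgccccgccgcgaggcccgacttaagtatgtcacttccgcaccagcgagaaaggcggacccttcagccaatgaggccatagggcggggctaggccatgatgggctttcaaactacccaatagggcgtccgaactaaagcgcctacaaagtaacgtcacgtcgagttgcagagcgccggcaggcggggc
Eif4e: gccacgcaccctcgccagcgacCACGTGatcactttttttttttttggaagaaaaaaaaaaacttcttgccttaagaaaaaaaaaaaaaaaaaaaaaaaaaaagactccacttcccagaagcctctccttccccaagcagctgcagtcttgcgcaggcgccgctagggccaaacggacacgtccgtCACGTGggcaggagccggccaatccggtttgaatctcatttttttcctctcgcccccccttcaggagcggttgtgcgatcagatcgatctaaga
The E-box of Eif4a1 begins 189 bases before the start, and those of Eif4e begin 228 and 64 bases before it. Over the longer windows, 9 of 38 matched members (23.7%) held CACGTG on either strand, against 11.6% of 9541 tested genes and 8.09% of 27025 genes in the table. The members' windows were also rich in G and C, with a median of 62.3% against 60.3% and 52.7%. Besides Eif4a1 and Eif4e they were Eif1b, Eif3a, Eif3f, Eif3k, Eif4h, Eif5a and Eif5a2, none of which fell by its brightest probe set; other sets of Eif3a and Eif5a fell at 24 h.

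A further 2 members fell at 24 h. Eif3d, an eIF3 subunit able to bind caps, fell by 0.37 ± 0.10 (limma adjusted p = 0.0346), with a mean over its 2 probe sets, 1 of them below the floor, of -0.19. Eif2s3x fell by 0.34 ± 0.09 (limma adjusted p = 0.0426). With a floor at the 25th percentile neither was called. A further probe set of Eif2s3x had a 24 h effect of -1.04 and read 1098.1 on the TGF-β 24 h with SP600125 array against 2711.8 to 4071.9 on the others, again the array with the high actin 3′/5′ ratio. Without any 1 of the 6 arrays none of the Eif3d, Eif2s3x, Eif4e and Eif4a1 falls was called. The late factors did not pass any test by their brightest probe sets. Eif5a, the hypusine-bearing factor and the brightest member of its group, had signals of 31626.4, 29747.2 and 30945.0 without the drug and 29636.9, 29502.7 and 26562.5 with it. Its other set fell at 24 h by 0.58 ± 0.14 (limma adjusted p = 0.0283) and read 7678.9 on the array with the high 18S signal, against 11848.5 to 15837.6 on the others. Eif6, which keeps the large subunit from joining early, had effects of -0.48 ± 0.12 at 12 h (limma adjusted p = 0.0644) and -0.21 at 24 h, and Eif5b, which joins the subunits, had effects of -0.03 and -0.01.

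**Figure D5:**
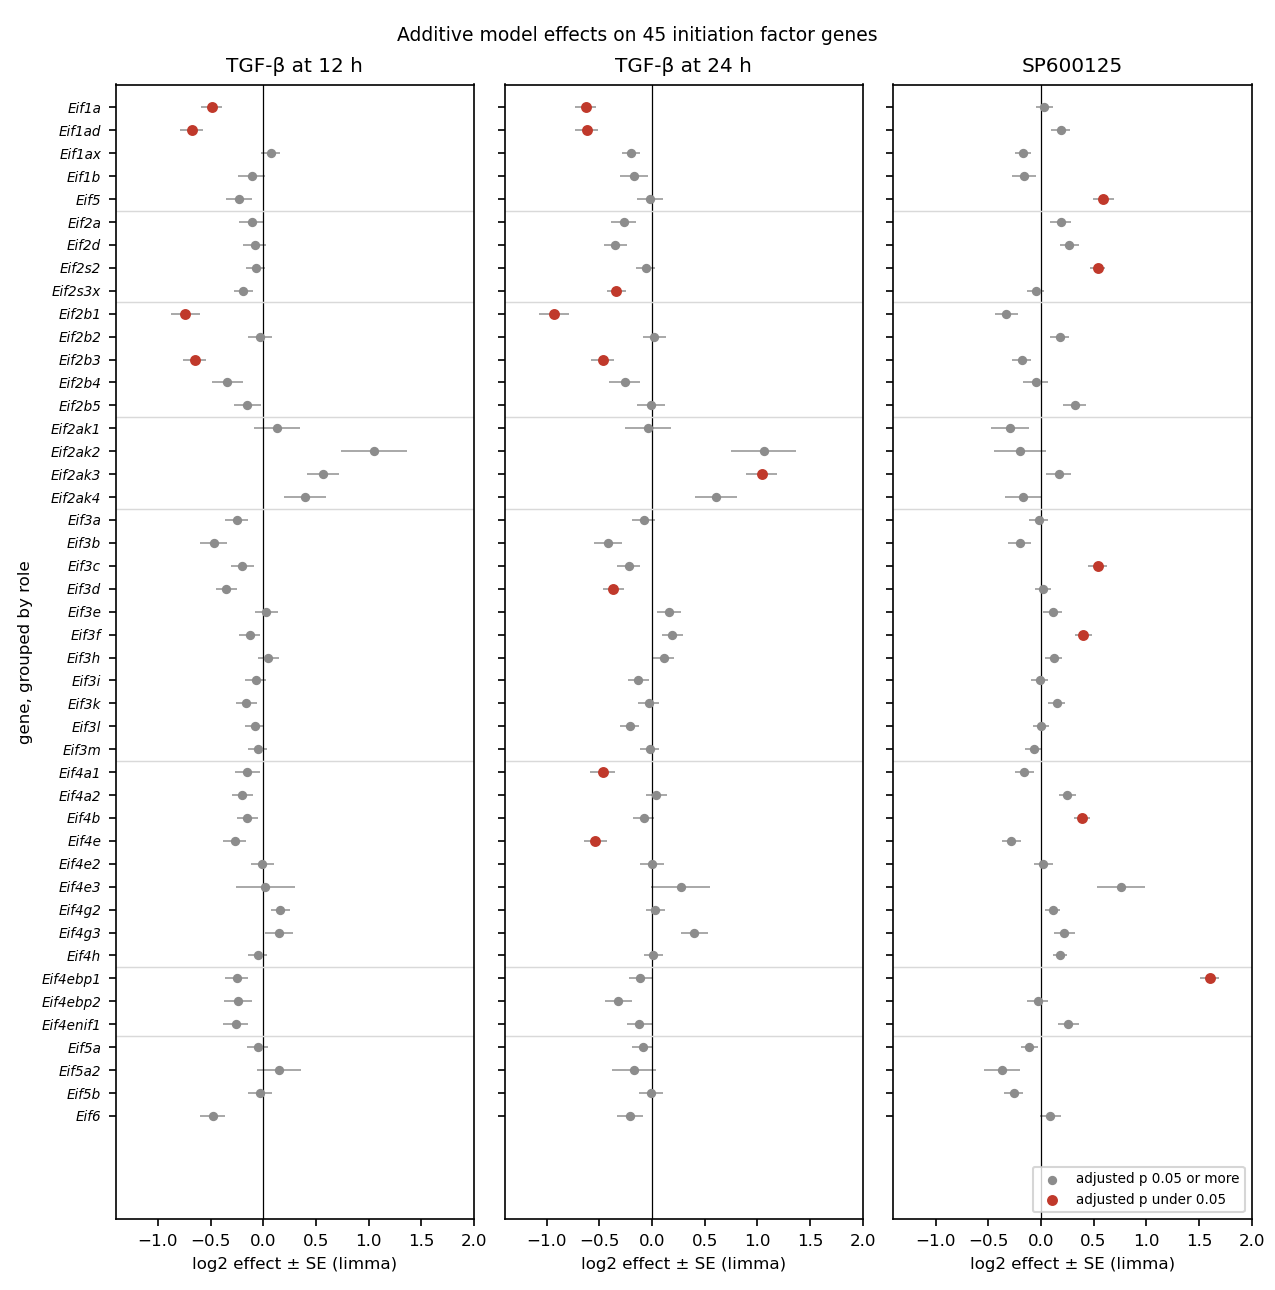
Points are log2 effects from limma with their standard errors (horizontal axis) for the 45 tested members (rows, grouped by role) in panels for 12 h of TGF-β, 24 h of TGF-β and SP600125, red where the adjusted p is under 0.05. The red points are 4 falls at 12 h, 8 falls and 1 rise at 24 h, and 6 rises with SP600125, of which Eif4ebp1 at 1.60 lies far from the rest.

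The brightest probe set does not speak for every gene, so limma was also run on each of 21238 probe sets, an alternative chosen after the values were seen. Of the 116 member sets tested, 0 rose and 7 fell at 12 h (1.78% and 1.52% of all sets), 4 rose and 22 fell at 24 h (6.76% and 6.39%), and 19 rose and 0 fell with SP600125 (2.99% and 2.74%). Members with a called set were 6 that fell at 12 h, and 4 that rose and 15 that fell at 24 h. With SP600125, 7 members had a set that rose. These members include all those called by the brightest set in the gene-level model. Eif2s3x at 24 h is included only by another set, as its brightest had a limma adjusted p of 0.0542 here. The further ones at 12 h were Eif4e and Eif4ebp1. At 24 h Eif2a, Eif2ak2 and Eif2b2 each had 1 further set that rose, and Eif1ax, Eif2d, Eif3a, Eif3c, Eif4ebp1, Eif4g2 and Eif5a had sets that fell. Eif3a, the largest subunit of eIF3, had 3 of its 4 sets fall, by 0.49 to 0.95, while the brightest had an effect of -0.08. With SP600125 the further member was Eif2d, by 0.47 ± 0.10 (limma adjusted p = 0.0342). Sets of 1 gene share their arrays and are not replicates, and a gene with more sets has more chances of a call.

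Between single pairs of arrays few members differed by 2-fold. TGF-β at 12 h without the drug had 0 members at least 2-fold higher, where 3.38% of all genes were, and at 24 h it had 1 (Eif2ak2), against 5.64%. With the drug, TGF-β had 1 at 12 h (Eif2ak2), against 2.51%, and 1 at 24 h (Eif2ak3), against 4.60%. SP600125 had 2 members higher at 0 h (Eif4e3 and Eif4ebp1), against 3.26%, and 1 each at 12 h and 24 h of TGF-β (Eif4ebp1), against 1.83% and 3.19%. None was 2-fold lower in any of the 7 pairs. The shares of all genes that were 2-fold lower were 1.50% and 1.97% for TGF-β at 12 h and 24 h without the drug and 1.32% and 2.00% with it. For SP600125 they were 1.34%, 1.17% and 1.95% at 0 h, 12 h and 24 h. Cells with TGF-β for 12 h and SP600125 had 12 h of the drug, while their unstimulated counterpart had 24 h.

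Whether SP600125 altered the TGF-β effect was tested in limma by an interaction term, in which the arrays of 12 h and of 24 h stand for 1 stimulated state. It called 0 of 11731 genes (0%), with 315 at an unadjusted p under 0.05, and 0 of the 45 members at either level. Member interactions ranged from -0.64 ± 0.32 (Eif2ak4) to 0.38 ± 0.21 (Eif3b), with an adjusted p of 0.999. With so few arrays a miss does not show that the effects are equal.

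Other genes of the pathway were read from 4 lists, chosen with earlier results of these data known. The counts of all 4 lists stand beside 2.60% of all genes that rose and 2.37% that fell at 12 h. The shares were 9.07% and 7.50% at 24 h, and 3.99% and 3.69% with SP600125. Without the TGF-β 24 h array, and likewise without the TGF-β 24 h with SP600125 array, limma called 0 of 11731 genes for any of the 3 effects (1884 to 2645 at an unadjusted p under 0.05), so no call in these lists was kept. Of the 17 calls named below, 12 were lost whichever array was left out. The other 5 were called without at least 1 array: Trib3 without 4 of the 6, Atf5, Eef1e1 at 24 h and Mknk2 at 24 h without 3, and Ddit4 at 24 h without 1. Of 10 tested genes of the list of eIF2 phosphatases and ATF4 output, 9 rose with SP600125 and 0 fell. Their median log2 effect was 1.87 against 0.04 for all genes. Trib3, a pseudokinase induced by ATF4, had signals of 234.0, 295.0 and 346.8 without the drug and 3593.1, 2379.5 and 4802.3 with it, and rose by 3.58 ± 0.18 (limma adjusted p = 0.000138). Atf5, a transcription factor translated under eIF2 phosphorylation, rose by 2.49 ± 0.13 (limma adjusted p = 0.000138). In the same list 3 rose at 24 h of TGF-β and 0 at 12 h. Among them were Ddit3, which encodes CHOP, by 0.91 ± 0.18, and Ppp1r15a, which encodes the eIF2 phosphatase subunit GADD34, by 0.75 ± 0.21 (limma adjusted p = 0.0136 and 0.0466). Both were highest on the TGF-β 24 h with SP600125 array, at 3415.1 and 2559.2.

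Among 15 tested genes of mTORC1 and MNK signalling to eIF4F, TGF-β had 2 rises and 1 fall at 12 h, then 3 rises and 1 fall at 24 h. SP600125 had 4 rises and 1 fall. Mknk2, a kinase that phosphorylates eIF4E, rose by 0.94 ± 0.09 at 12 h and 0.85 ± 0.09 at 24 h (limma adjusted p = 0.00271 and 0.00202), from 5263.7 to 10396.4 and 9737.2 without the drug and from 4414.2 to 8216.4 and 7721.2 with it. Ddit4, an inhibitor of mTORC1, rose by 1.14 ± 0.25 and 0.99 ± 0.25 with TGF-β and by 0.92 ± 0.21 with SP600125 (limma adjusted p = 0.0454, 0.0336 and 0.0352). Akt1s1, which encodes the mTORC1 inhibitor PRAS40, rose by 0.84 ± 0.20 with SP600125 (limma adjusted p = 0.0439).

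Of 10 tested elongation and termination genes, 2 fell at 12 h, 4 fell at 24 h and 0 rose with TGF-β, and 1 rose with SP600125. Eef1e1, a scaffold of the tRNA synthetase complex, fell by 0.82 ± 0.11 and 0.84 ± 0.11 at the 2 times, the release factor gene Etf1 by 0.59 ± 0.10 at 12 h, and Gspt1, which encodes its GTPase partner, by 0.65 ± 0.10 at 24 h. Eef2, the translocation factor, rose by 0.37 ± 0.08 with SP600125. Of 14 tested helpers and modifiers of initiation factors, 0 changed at 12 h or with SP600125, and at 24 h 1 rose and 2 fell. The one that rose was Paip2, an inhibitor of the poly(A) binding protein, by 0.59 ± 0.12 (limma adjusted p = 0.0143). Dohh, an enzyme of hypusine synthesis on eIF5A, fell by 0.49 ± 0.14 (limma adjusted p = 0.0476).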

How the data were processed

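Total RNA was labelled as biotinylated cRNA, per the labels' protocols. The deposited values are 1 linear intensity (signal) per probe set and array, and per the submitters' processing notes they came from GCOS 1.2, with no settings named in the labels. The 2% trimmed mean of the deposited signals was 500.0 on each array and the medians were 69.3 to 80.9, so they were used as scaled. Of 45101 probe sets, 34958 had 1 symbol, 932 several and 9211 were not listed. The 133 probe sets of the 47 members include 22 with a suffix for shared probes; 6 more with several symbols were left out. A gene was its brightest probe set. Signals were floored at 74.2 (50th percentile) before log2, and genes above it on at least 2 arrays were tested.

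limma 3.58.1 (R 4.3.3) was run with an intensity trend: 2 residual degrees of freedom, to which the prior added 5.97 (2.79 for the interaction). Errors after ± are limma standard errors. The error term is departure from additivity, and the p-values speak of these 6 arrays alone. The model was also run on simulated data, but the outcome is not given here, so that run lends no weight to the calls. The number of arrays limits the precision.

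Members, roles and lists were chosen with earlier results of these data known. Signals on all arrays are given for members called with a log2 effect of at least 0.5, members 2-fold different in any pair and the brightest of each role. Of the other lists the 2 largest called effects are named. Alternatives were another floor, 2 scalings, the mean of probe sets, no filter, no trend and leaving out each array, and, chosen after the values were seen, each probe set tested singly. Promoter windows were matched by symbol for 38 members.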

Additional observations from a re-analysis of the deposited data

Results flagged for a closer look

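The difference between TGF-β and unstimulated arrays was taken from the brightest probe set of each gene. For 4 members it had one sign at both times without SP600125 and the other sign at both times with it. That is 8.89% of the 45 tested members, against 9.53% of all tested genes, and both times in an arm share 1 unstimulated array. The mean log2 difference of Eif2ak1 was 0.27 without the drug and -0.18 with it, of Eif2b2 0.11 and -0.13, of Eif4e2 -0.12 and 0.11, and of Eif5b 0.04 and -0.07. No other tested probe set of these 4 genes showed this sign pattern. The interaction in limma had an adjusted p of 0.999 for each of the 4. No group had enough arrays to look for a single array far from the others.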

How the results depend on the processing

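The 19 effects called in members kept their sign under all 12 alternatives planned, which gave 228 values; 68 of these stayed called and 160 did not. Quantile normalization and a floor at the 25th percentile (20.3) kept every count within 1.5 times its value, though that floor gave 6 falls at 24 h, without Eif2s3x and Eif3d. Each probe set tested on its own, an alternative chosen after the values were seen, gave 4 members with a rise and 15 with a fall at 24 h, and 6 with a fall at 12 h. Scaling each array to the same median gave 7 falls at 12 h and 13 at 24 h, with a 24 h member median of -0.23. Falls over all genes went from 278 and 880 to 439 and 1328. That scaling also gave 2 members past 2-fold at 24 h without drug. The mean of all probe sets gave 0 falls at 12 h, 0 rises and 5 falls at 24 h and 3 SP600125 rises. Over the 11817 genes, calls were 86, 964 and 175 for the 3 effects, against 583, 1944 and 901 in the main model. Pairs past 2-fold became 0 at 12 h and 0 at 24 h with drug, and 1 for SP600125 at 0 h. With no filter on dim genes there were 0 falls at 12 h, 0 rises and 0 falls at 24 h, and 0 SP600125 rises. Over all 18194 genes that fit called 2, 3 and 0. Without the intensity trend there were 0 falls at 12 h, 1 fall at 24 h and 1 SP600125 rise. Calls over all 11731 genes were then 22, 562 and 92. Leaving out 1 array at a time gave 0 falls at 12 h, 0 rises and 0 to 1 falls at 24 h, and 0 to 1 SP600125 rises; that leaves 1 residual degree of freedom. Fits with 1 array left out also called far fewer of all genes. Other causes were not tested.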
